A study of Mus musculus with 38 samples.

Results

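The comparison described here set livers of fasted mice against livers of mice fed ad libitum (free access to food) at 14 h, the hour given in the sample names. It used 6 of the 38 liver libraries of the study, 3 labelled F_14h and 3 labelled AL_14h, chosen by their labels alone, and all 13786 genes that passed the filter on low counts. All 38 libraries came from female wild-type C57BL/6 mice, and no group carried a transgene, a deletion or a drug. The study also held calorie-restricted mice and other hours, and its title concerns circadian clocks, periodic fasting and fat in the liver. The labels gave ages of 20, 21 and 22 months for the ad libitum mice and of 26, 27 and 28 months for the fasted mice. Other groups used below were the ad libitum and fasted mice of 6 h (11 and 12, and 17 to 19 months) and of 22 h (29 to 31 and 36 to 38 months). The calorie-restricted mice of 14 h were labelled 23 to 25 months. Labelled age rose from sample to sample through the series, mostly by 1 month, from 5 to 44 months. Whether these are true ages could not be checked. If they are, age cannot be told apart from fasting, from hour or from calorie restriction. The labels did not say how long food had been withheld, nor that the 3 libraries of a group came from separate animals. If they did not, the p-values measure only a technical spread.

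In a fed liver, insulin favours glycogen storage and the making of fatty acids and cholesterol, both driven by SREBP transcription factors. In a fasted liver, glucagon, glucocorticoids and fatty acids released from fat tissue become the leading signals. The nuclear receptor PPARA then raises enzymes that oxidise fatty acids and make ketone bodies, and FOXO and CREB factors raise genes of glucose production. Fat can accumulate in hepatocytes as lipid droplets while this happens.

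Each value below is a level in CPM, the count of a gene scaled to the size of its library and by TMM, unless stated. Values of a group stand in replicate order, and where both groups are given without their names, the ad libitum values come first. Every fold change is a log2 ratio of fasted over ad libitum, with the standard error of the model, from edgeR's quasi-likelihood test with Benjamini-Hochberg adjustment over all 13786 genes. "Rose" and "fell" are used only for genes with an adjusted p under 0.05. The libraries fasted 1, 2 and 3 and ad libitum 1, 2 and 3 held 17954145 to 22068985 expected counts. The 10 most abundant genes took 28.6%, 22.1% and 22.1% of the counts in the ad libitum libraries and 19.6%, 18.7% and 19.1% in the fasted ones. Alb, the albumin gene that marks hepatocytes, was at 109846, 100335 and 105683 in the ad libitum libraries and at 77138, 63364 and 71880 in the fasted ones, with a fold change of -0.57 ± 0.26 that did not pass the test (adjusted p = 0.111). Fasted 1 stood far above fasted 2 and 3 for several stress and hormone-responsive genes, and values without it are given beside results that they move. In bulk tissue, fewer cells of a type and less RNA per cell cannot be told apart.

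The promoters of the sterol synthesis genes are shown first, because 18 of its 20 tested genes fell, the highest share of lower genes among the 35 pathway lists counted. Each line gives the 150 bases upstream of the RefSeq transcription start, outside the transcript, on assembly GRCm38.p6 and 5′ to 3′ on the gene's own strand, with the pentamer CCAAT or its reverse complement ATTGG in capitals. The Hmgcs1 window is chr13:119690201-119690350 on the plus strand, the Mvd window chr8:122443423-122443572 on the minus strand, the Idi1 window chr13:8885456-8885605 on the plus strand and the Msmo1 window chr8:64733579-64733728 on the minus strand. These 4 were chosen after their matches were seen, and the same 150 bases of Insig1 and Acat2, not shown, held 0 matches.
Hmgcs1: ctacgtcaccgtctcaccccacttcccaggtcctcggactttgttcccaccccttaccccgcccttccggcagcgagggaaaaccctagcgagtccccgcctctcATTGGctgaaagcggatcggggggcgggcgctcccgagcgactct
Mvd: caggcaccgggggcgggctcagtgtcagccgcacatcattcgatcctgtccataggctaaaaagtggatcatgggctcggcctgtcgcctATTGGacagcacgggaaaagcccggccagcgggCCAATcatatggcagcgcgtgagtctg
Idi1: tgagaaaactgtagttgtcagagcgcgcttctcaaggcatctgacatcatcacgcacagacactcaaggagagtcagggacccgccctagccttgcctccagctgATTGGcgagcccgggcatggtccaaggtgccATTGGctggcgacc
Msmo1: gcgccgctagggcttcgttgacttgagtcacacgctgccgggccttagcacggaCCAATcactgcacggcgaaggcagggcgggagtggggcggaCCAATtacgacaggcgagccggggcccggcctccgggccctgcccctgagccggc

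CCAAT is the letter sequence bound by NF-Y, a factor that works beside SREBP on sterol promoters. Among 10601 tested genes with a RefSeq promoter, 40.3% held CCAAT on either strand in the 250 bases before the start, and 14.7% held it at 2 or more places. Of the 15 cholesterol synthesis genes with a promoter, 14 held it at least once and 9 at 2 or more places (60%). Read from 250 bases before to 50 after the start, CCAAT was in 42.7% of all genes, 46.2% of those called lower and 39.2% of those called higher. On that reading the other lists searched held it in 50% (fatty acid oxidation) to 76.5% (clock) of their genes, so it was not particular to cholesterol synthesis. The sterol element TCACNCCAC, where N is any base, was in 1.47% of all genes on the same reading. It was in 1 of the 15 cholesterol synthesis genes, Hmgcs1, 137 bases before the start, and in 2 of 30 of the fatty acid oxidation list. For the insulin response element CAAAACA, bound by FOXO factors, 2 promoters are shown with the match in capitals and 30 bases on each side. They are those of Igfbp1, chr11:7197649-7197715, and G6pc, chr11:101367512-101367578, both on the plus strand.
Igfbp1: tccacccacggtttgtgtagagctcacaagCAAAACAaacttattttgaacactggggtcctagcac
G6pc: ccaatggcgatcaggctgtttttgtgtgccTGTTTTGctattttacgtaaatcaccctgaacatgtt

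CAAAACA on either strand was in 5.53% of all genes with a promoter, in 4.98% of those called higher and in 4.98% of those called lower. It was in 3 of 17 genes of the insulin and FOXO list and in 3 of 15 of the gluconeogenesis list. Of these lists Creb3l3, Irs1, Irs2 and Pck2, not shown, also held it. A total of 7 motifs were searched on both strands, and each share counts genes with a match in any of their promoters. AGGTCANAGGTCA, the PPARA element, was in 0.0472% of genes and in 0 of 30 of the fatty acid oxidation list. The E-box CACGTG was in 11.2%, in 5 of 17 clock genes and in 3 of 8 of the sterol sensing list. The cAMP element TGACGTCA was in 3.33%, in 1 of 15 gluconeogenesis genes and in 2 of 12 of the growth arrest list. The p53 motif CATGTCC was in 2.71% and in 0 of 12 growth arrest promoters. These letters may overlap other motifs, and a match describes the sequence only.

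About 1 gene in 4 differed between fasted and fed livers at this hour. Of 13786 genes tested, 3374 passed (24.5%), 1627 of them higher in fasted livers (11.8%) and 1747 lower (12.7%). The 3 fasted and 3 ad libitum libraries did not overlap for 5282 genes (38.3%). A change of at least 2-fold was called for 1624 genes, 686 higher and 938 lower, and of at least 4-fold for 377, 156 higher and 221 lower. Among the 35 pathway lists, cholesterol synthesis held the highest share of lower genes and fatty acid oxidation the highest share of higher genes. List counts below are to be read against 11.8% higher and 12.7% lower over all genes. Several lay near those shares, which does not set a list apart. The number of calls leaned on single libraries: it was 1883 without ad libitum 3 and 2244 without ad libitum 1, and 1350 genes were called in each of the 6 fits that left out 1 library. Fold change also moved with transcript length across genes. The median exon length was 6586 bases for genes called higher and 2678 for genes called lower, against 4371 over all tested genes. Across genes, and as a description only, the level in a library relative to the mean of the series had a rank correlation with exon length of -0.221, -0.0402 and -0.395 in the ad libitum libraries and of 0.247, 0.281 and 0.271 in the fasted ones. Whether length or RNA quality plays a part in a given result was not tested, and counts with the length trend removed, or from a fit of the 6 libraries alone, are given where they differ by more than 1.5 times.

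**Figure D1:**
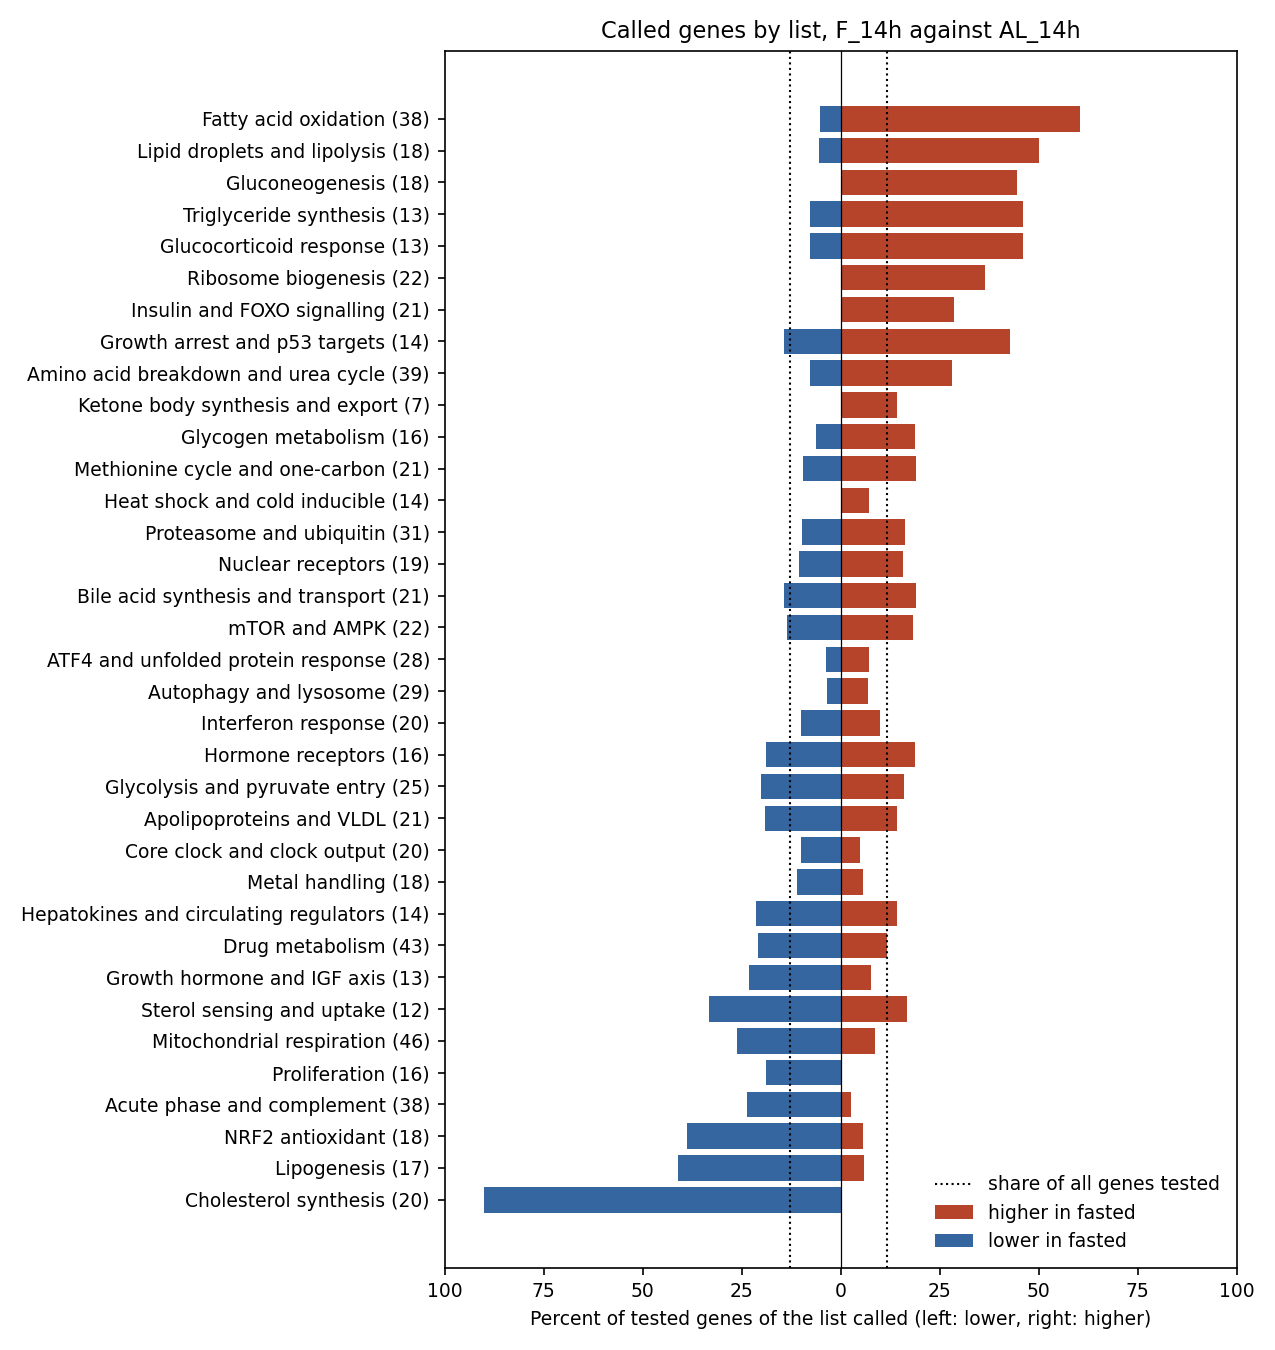
Percent of the tested genes of each pathway list called higher (red, right) and lower (blue, left) in fasted than in ad libitum livers at 14 h, with list sizes in brackets and dotted lines at the shares over all genes (11.8% and 12.7%). Cholesterol synthesis has 18 of 20 genes lower, and fatty acid oxidation has 23 of 38 higher.

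Cholesterol synthesis was lower at nearly every step from acetyl-CoA units to cholesterol. Of 20 genes of the list 18 fell and 0 rose, with a median fold change of -2.69 against -0.04 over all genes, and the count was the same without any 1 of the 6 libraries and with the length trend removed. Hmgcs1, which makes HMG-CoA in the cytosol, was at 551, 1123 and 1127 in the ad libitum libraries and at 75.8, 151 and 89.1 in the fasted ones. Every fasted library lay far below every ad libitum library, and Hmgcs1 fell by 3.15 ± 0.49 (adjusted p = 6.21e-05). The mevalonate arm followed. Mvd, which decarboxylates mevalonate pyrophosphate, was at 26.2, 58.5 and 77.8 in ad libitum and at 1.49, 4.17 and 3.58 in fasted livers. The groups were far apart, and Mvd fell by 4.14 ± 0.55 (adjusted p = 1.06e-05). Of the kinases before it, Mvk fell by 3.33 ± 0.52 and Pmvk fell by 2.17 ± 0.35.

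The isoprenoid steps and the sterol steps after squalene were lower too. Idi1, the isomerase that yields dimethylallyl pyrophosphate, was at 330.1, 620.3 and 807 in ad libitum and 34.6, 39.7 and 33.1 in fasted livers. The fasted values were nearly equal to each other and far under the fed range, and Idi1 fell by 4.03 ± 0.44 (adjusted p = 5.77e-07). Fdps, the farnesyl pyrophosphate synthase, was at 224, 441 and 477 and 21.8, 30.5 and 20.1 in the same order. Its groups did not overlap either, with a fall by 3.98 ± 0.43 (adjusted p = 5.62e-07). Sqle, which makes squalene epoxide and is a second control point, was at 85.1, 222 and 146 and 9.61, 15.9 and 12, and fell by 3.59 ± 0.55 (adjusted p = 5.22e-05). Msmo1, which removes methyl groups from the sterol ring, was at 211, 396 and 581 and 27.4, 46 and 22.6. The lowest fed value of Msmo1 was still above the highest fasted one, and it fell by 3.63 ± 0.61 (adjusted p = 0.00013). Fdft1, Lss, Cyp51, Nsdhl, Sc5d and Dhcr7 had fold changes between -3.28 and -2.40, and Tm7sf2 and Ebp, with -1.40 and -1.09, fell least of those called. Hsd17b7, a reductase of the same arm, was not called (0.10 ± 0.36, adjusted p = 0.873).

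Sterol sensing and uptake genes moved in both directions, with 2 of 12 higher and 4 lower (median -0.35), or 4 higher without ad libitum 2. The pair of INSIG proteins, which hold SREBP in the endoplasmic reticulum, went opposite ways. Insig1, itself an SREBP target, was at 423, 547 and 814 in ad libitum and 47.9, 108 and 78.2 in fasted livers and fell by 2.93 ± 0.40 (adjusted p = 1.3e-05). Insig2 was at 153, 100.5 and 110.5 in ad libitum and 1125, 535 and 513 in fasted livers. All fasted values of Insig2 were above all fed ones, with fasted 1 the highest, and Insig2 rose by 2.58 ± 0.36 (adjusted p = 1.53e-05). Stard4, a sterol carrier, fell by 1.85 ± 0.25 and Mylip, a ubiquitin ligase under sterol control, rose by 1.64 ± 0.30. Srebf2, the factor named for this pathway, did not pass the test (-0.74 ± 0.31, adjusted p = 0.0837), but did pass with the length trend removed (adjusted p = 0.0208).

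**Figure D2:**
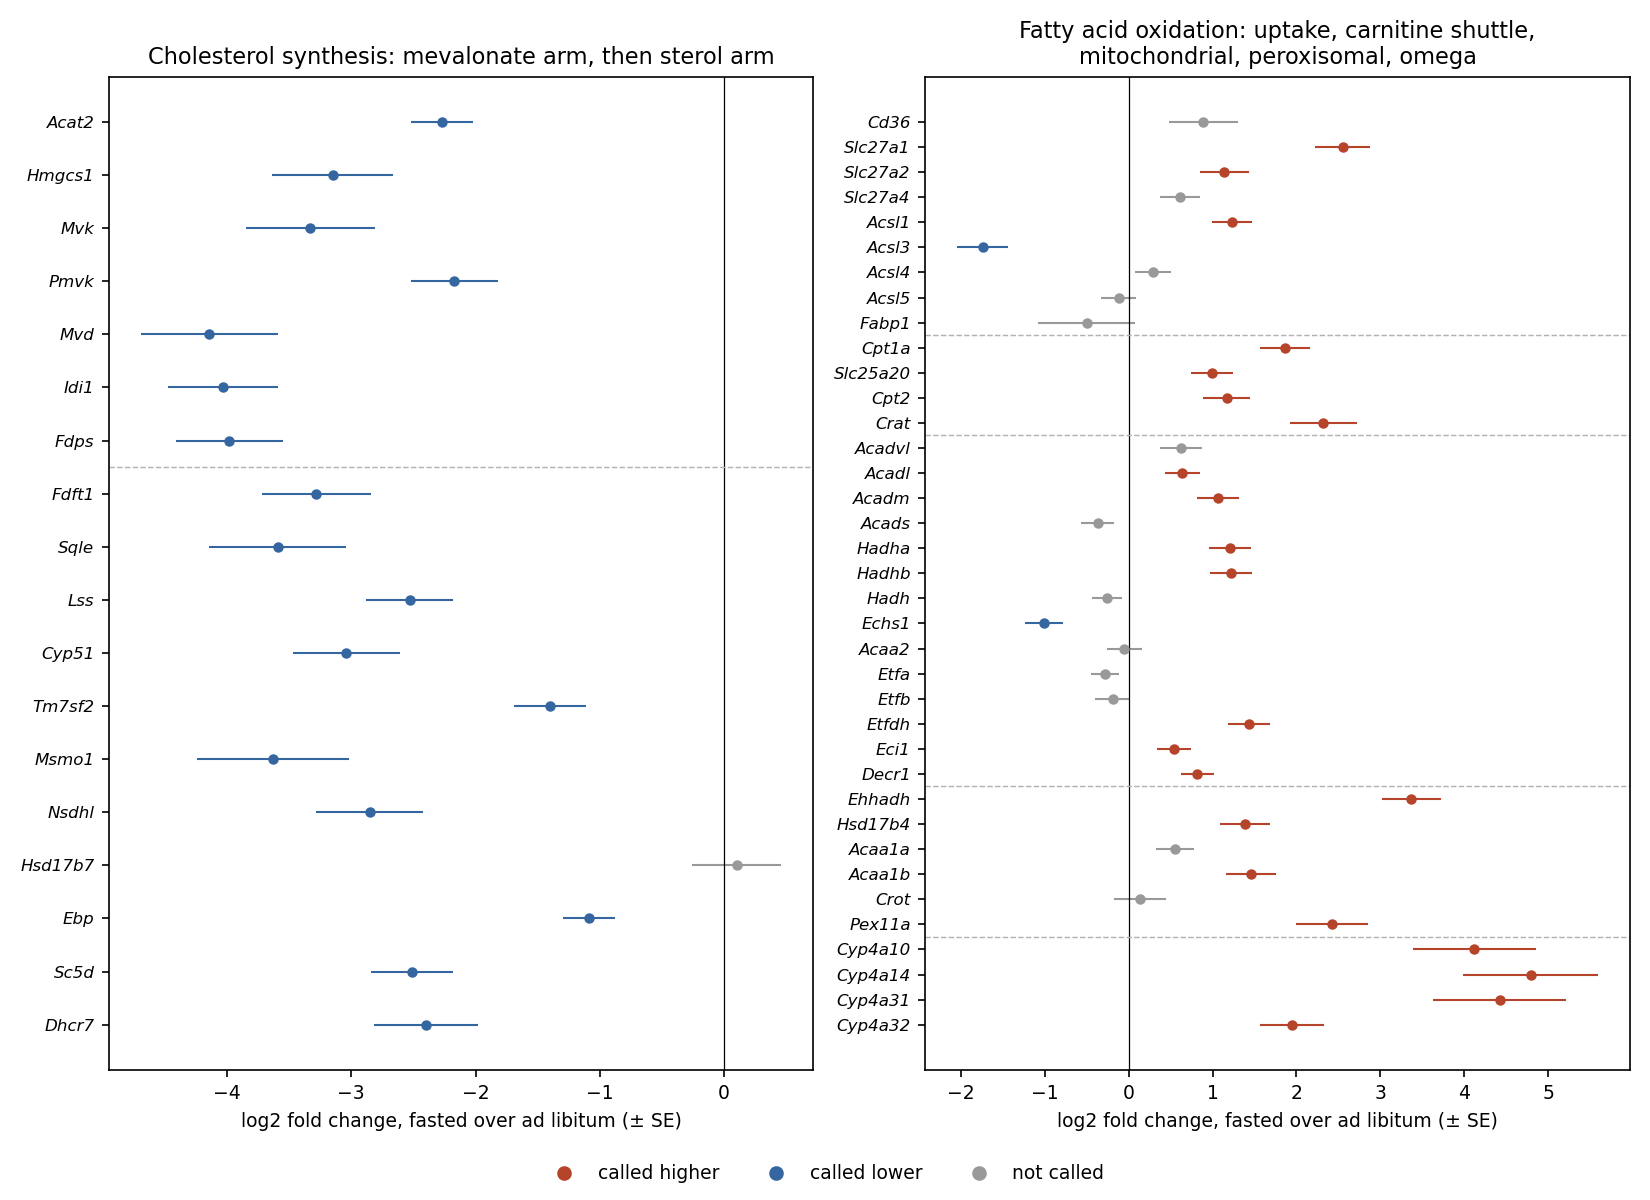
Log2 fold change of fasted over ad libitum livers at 14 h, with bars of 1 standard error, for reported genes of the cholesterol synthesis and fatty acid oxidation lists in pathway order, with dashed lines between roles. Blue points were called lower, red points higher and grey points were not called, and all sterol genes but Hsd17b7 lie left of 0 while Cyp4a14, Cyp4a31, Cyp4a10 and Ehhadh lie farthest to the right.

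Fatty acid synthesis was lower for part of its list: 7 of 17 genes fell and 1 rose (median -0.90), with 4 lower without fasted 1 and the higher member lost without fasted 1 or ad libitum 3 and 2 higher from the 6 libraries alone. Srebf1, which encodes the SREBP that drives it, was at 369, 374 and 307 in ad libitum and 33.4, 56.3 and 44.3 in fasted livers. The fed values were close together and far above the fasted ones, and Srebf1 fell by 2.97 ± 0.41 (adjusted p = 1.3e-05). Acly, which makes cytosolic acetyl-CoA from citrate, fell by 1.44 ± 0.34, and Acss2, which makes it from acetate, fell by 2.12 ± 0.45. Fasn, the fatty acid synthase, fell by 1.55 ± 0.47 (adjusted p = 0.0173), a call lost without fasted 1, fasted 3 or ad libitum 1 (adjusted p = 0.0835, 0.052 and 0.0673). Acacb, the acetyl-CoA carboxylase linked to control of carnitine transfer, was the member that rose, by 1.31 ± 0.37 (1.04, adjusted p = 0.0674 without fasted 1 and 1.17, adjusted p = 0.0617 without ad libitum 3). Mlxipl, the carbohydrate-response factor, fell by 1.83 ± 0.51 (adjusted p = 0.00981), a call lost without fasted 1 (-1.65, adjusted p = 0.0528) or ad libitum 1 (-1.22, adjusted p = 0.107). Scd1, the desaturase, did not pass (-0.90 ± 0.63, adjusted p = 0.321).

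Genes of fatty acid oxidation were mostly higher, in each gene of the carnitine shuttle and of omega oxidation and in part of the other steps. Of 38 genes of the list 23 rose and 2 fell, with a median of 1.03, and 21 to 23 were higher without any 1 library. By role, 3 of 9 uptake and activation genes rose and 1 fell (median 0.61). All 4 genes of the carnitine shuttle rose (median 1.51), 7 of 14 mitochondrial genes rose and 1 fell, 5 of 7 peroxisomal genes rose (median 1.46) and all 4 omega oxidation genes rose (median 4.27). Cpt1a, which makes acylcarnitine at the outer mitochondrial membrane, was at 219, 378 and 242 in ad libitum and 1081, 969.7 and 985 in fasted livers. All fasted values were more than 2 times the highest fed one, and Cpt1a rose by 1.86 ± 0.30 (adjusted p = 9.71e-05). Slc27a1, a fatty acid transporter, was at 11.6, 12.3 and 9.54 and 76.9, 61 and 58.2 and rose by 2.55 ± 0.33 (adjusted p = 8.98e-06), while Acsl3, which activates fatty acids with coenzyme A, fell by 1.74 ± 0.30. Inside mitochondria, Acadm, Hadha, Hadhb and Etfdh rose by 1.07 ± 0.25, 1.21 ± 0.25, 1.22 ± 0.25 and 1.43 ± 0.25, while Echs1, a hydratase for short chains, fell by 1.01 ± 0.23 (-0.63, adjusted p = 0.0567 without ad libitum 3).

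The omega oxidation genes had the largest median of these roles, and Ehhadh the largest change among the peroxisomal ones. Ehhadh, the bifunctional enzyme of peroxisomal beta oxidation, was at 321, 339 and 301 in ad libitum and at 3652, 2969 and 3299 in fasted livers. The values within each group were nearly equal and about 10-fold apart between groups, and Ehhadh rose by 3.37 ± 0.35 (adjusted p = 5.62e-07). Hsd17b4, Acaa1b and Pex11a, a peroxisome division protein, rose by 1.39 ± 0.30, 1.46 ± 0.30 and 2.42 ± 0.43. Cyp4a14, which hydroxylates the far end of fatty acids, was at 334, 353 and 270.1 in ad libitum and 8561, 8311 and 9692 in fasted livers, and rose by 4.79 ± 0.80 (adjusted p = 0.00012). Cyp4a10 was at 357, 459.7 and 228 and 6181, 5662 and 6368, and rose by 4.12 ± 0.73 (adjusted p = 0.000218). These fasted values placed both among the abundant liver transcripts, though reads of the Cyp4a copies may be shared between them. Ppara itself rose by 1.38 ± 0.34 (adjusted p = 0.00397), or by 2.00 without ad libitum 2. Of 7 ketone body genes 1 rose and 0 fell (median 0.38), or 2 rose from the 6 libraries alone.

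Of 18 genes of lipid droplets and lipolysis 9 were higher and 1 lower (median 0.95; 6 to 8 higher without any 1 library). Plin2, the main droplet coat protein of hepatocytes, was at 246, 342 and 260.4 in ad libitum and 1647, 799 and 909.9 in fasted livers. Fasted 1 was highest, the groups did not overlap, and Plin2 rose by 1.98 ± 0.27 (adjusted p = 1.15e-05). Cidec, which fuses droplets, was at 0.857, 0.474 and 0.6 and 167, 23.2 and 47.9. It was near 0 in each fed liver and spread over a wide range in fasted ones, with fasted 1 highest, and rose by 6.94 ± 1.03 (adjusted p = 3.96e-05), or by 5.79 (adjusted p = 0.000435) without fasted 1. Plin5, which ties droplets to mitochondria, rose by 2.51 ± 0.55, and Fitm2, needed for droplet budding, by 2.24 ± 0.30. Of 7 lipases and cofactors 3 rose and 1 fell (median 0.25), with 2 or 3 higher without any 1 library. Pnpla2, which begins triglyceride breakdown, rose by 1.91 ± 0.42 and Mgll, which ends it, by 1.45 ± 0.31, while the esterase Ces1g fell by 1.07 ± 0.28 (-0.86, adjusted p = 0.0575 without ad libitum 3).

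Of 13 triglyceride synthesis genes 6 were higher and 1 lower (median 1.14). Lpin1, a phosphatidate phosphatase and a coactivator of fatty acid oxidation genes, was at 24.1, 74.4 and 33 in ad libitum and 670.5, 290.1 and 481 in fasted livers. Every fasted value was above every fed one, and Lpin1 rose by 3.45 ± 0.72 (adjusted p = 0.000942), or by 4.07 without ad libitum 2. Gpat4, which starts glycerolipid synthesis, rose by 1.42 ± 0.27, and Gk, the glycerol kinase, by 1.14 ± 0.24. Dgat2, which adds the last acyl chain, was the member that fell, by 0.87 ± 0.24 (-0.67, adjusted p = 0.0507 without ad libitum 2).

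Glucose production genes were higher in 8 of 18 cases and lower in 0 (median 0.82). The count was 2 without ad libitum 1, 3 without ad libitum 3 and 4 without fasted 3. G6pc, which releases free glucose and whose promoter match is shown above, was at 198, 115 and 86.6 in ad libitum and 595, 574 and 594 in fasted livers. The 3 fasted values were nearly the same and about 3 times the highest fed one, and G6pc rose by 2.14 ± 0.47 (adjusted p = 0.00154). Pck1, the cytosolic carboxykinase, was at 1009, 2597 and 938 and 5694, 4078 and 4285. Ad libitum 2 lay well above the other fed livers but under each fasted one, and the fold change of Pck1, 1.63 ± 0.62, did not pass (adjusted p = 0.0526). Without ad libitum 2 it passed, at 2.27 (adjusted p = 0.0192). Slc37a4, which carries glucose phosphate to G6pc, rose by 1.13 ± 0.38, with an adjusted p of 0.0617, 0.0666, 0.0852 and 0.107 without fasted 2 or 3 or ad libitum 1 or 3.

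Of 25 glycolysis genes 4 were higher and 5 lower (median 0.28), or 36% called against 24.5% over all genes. Without fasted 1 there were 2 higher and 3 lower, and 3 were lower without fasted 2 or 3 or ad libitum 1 or 3. Pdk4, which shuts pyruvate dehydrogenase, was at 5.14, 4.98 and 7.03 in ad libitum and 84.7, 29.8 and 33.2 in fasted livers and rose by 3.11 ± 0.88 (adjusted p = 0.0106), a call lost without fasted 1 (2.46, adjusted p = 0.06). Gckr, a regulatory protein of hepatocyte sugar use, fell by 1.03 ± 0.26. Pklr, the liver pyruvate kinase, fell by 1.60 ± 0.42 (adjusted p = 0.0065), a call lost without fasted 1 (-1.29, adjusted p = 0.0517). Pfkfb2, which sets the level of an activator of glycolysis, rose by 1.52 ± 0.31.

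Of 16 glycogen genes 3 rose and 1 fell (median -0.15), with 2 lower without ad libitum 2 or with the length trend removed. Ppp1r3g, a subunit that brings a phosphatase to glycogen, was at 0, 0.426 and 0.218 in ad libitum and 99, 4.66 and 6.94 in fasted livers. It was barely detected in fed livers and far higher in fasted 1 than in fasted 2 and 3, and rose by 7.34 ± 1.33 (adjusted p = 0.000269), or by 4.68 (adjusted p = 0.00763) without fasted 1 and 8.34 without ad libitum 2. Ugp2, which makes UDP-glucose, fell by 0.96 ± 0.18.

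The insulin and FOXO list had 6 of 21 genes higher and 0 lower (median 0.35), or 4 and 1 with the length trend removed. Igfbp1, a secreted IGF binding protein that insulin represses, was at 2.04, 38.2 and 27.3 in ad libitum and 1097, 114 and 211 in fasted livers. Fasted 1 stood far above the others and ad libitum 1 far below, without overlap, and Igfbp1 rose by 4.39 ± 1.02 (adjusted p = 0.00238), or by 2.85 (adjusted p = 0.0365) without fasted 1 and 5.01 without ad libitum 2. Irs2, the insulin receptor substrate, was at 12.9, 34.9 and 18 and 129, 32.2 and 41.5, so that fasted 2 lay within the fed range. Irs2 rose by 1.62 ± 0.57 (adjusted p = 0.0361), a call lost without fasted 1 (0.75, adjusted p = 0.395), ad libitum 1 (1.35, adjusted p = 0.151) or ad libitum 3 (1.50, adjusted p = 0.129). Txnip, which limits glucose uptake, was at 23.2, 43.1 and 58.1 and 322, 214 and 232. Its groups were well apart, and it rose by 2.63 ± 0.32 (adjusted p = 3.68e-06).

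The growth hormone and IGF list had 1 of 13 higher and 3 lower (median -0.15). Ghr, the growth hormone receptor, was at 635, 511 and 674 in ad libitum and 282, 279.9 and 229 in fasted livers. No fasted value reached the fed range, and Ghr fell by 1.20 ± 0.24 (adjusted p = 0.000692). Igfals, which holds IGF in plasma, fell by 1.87 ± 0.31. Igf1 itself did not pass (-0.56 ± 0.27, adjusted p = 0.129).

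Of 14 genes of hormones secreted by the liver 2 were higher and 3 lower (median -0.34), or 35.7% called against 24.5% over all genes. Fgf21, a fasting hormone under PPARA, was at 0.375, 1.47 and 0.218 in ad libitum and 14.2, 15 and 29.6 in fasted livers. It was under 2 CPM in each fed liver and well above that in each fasted one, and rose by 4.79 ± 0.87 (adjusted p = 0.000269), or by 6.02 without ad libitum 2. Angptl8, which insulin raises and which acts on lipoprotein lipase, was at 207, 92.5 and 26.3 and 1.55, 12.9 and 14.9. The fed values were widely spread and the groups did not overlap, and Angptl8 fell by 3.47 ± 0.74 (adjusted p = 0.00126), or by 2.6 without ad libitum 1. Angptl4, an inhibitor of the same lipase, rose by 2.06 ± 0.50, and Lect2 fell by 2.27 ± 0.34 and Enho fell by 2.33 ± 0.46.

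Hormone receptors had 3 of 16 members higher and 3 lower (median -0.06), or 37.5% called against 24.5% over all genes. With the length trend removed 2 were higher and 6 lower (median -0.20), and 5 were lower from the 6 libraries alone. Lepr, the leptin receptor gene, was at 7.44, 10.8 and 2.18 in ad libitum and 122, 45.5 and 108 in fasted livers. The lowest fasted value was above the highest fed one, and Lepr rose by 3.74 ± 0.70 (adjusted p = 0.000348). Adra2a, an adrenergic receptor, had 0 counts in the 3 ad libitum libraries and 280 in the fasted ones, at 1.28, 4.93 and 8.87 CPM. Set against a floor of 3 counts over the group, the pooled fasted level was 97.4-fold higher. The 95% counting interval of the pooled ratio had a lower limit of 78.7. Adra1b, the main hepatic alpha 1 receptor, fell by 2.48 ± 0.34 (adjusted p = 1.37e-05), while Adra1a rose by 0.89 ± 0.23 (0.68, adjusted p = 0.0583 without fasted 1). Gcgr, the glucagon receptor, fell by 0.75 ± 0.21, a call lost without fasted 1 (-0.65, adjusted p = 0.0559) or ad libitum 1 (-0.56, adjusted p = 0.0754).

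Glucocorticoid-responsive genes were higher in 6 of 13 cases and lower in 1 (median 1.61). Zbtb16, a transcriptional repressor, was at 6.86, 2.65 and 0.763 in ad libitum and 28.3, 41.5 and 58.3 in fasted livers, and Dusp1, a phosphatase of MAP kinases, at 16.8, 8.53 and 6.05 and 36, 54.3 and 53.4. Neither gene's groups overlapped, and they rose by 3.64 ± 0.73 (4.62 without ad libitum 1) and 2.19 ± 0.33. Klf9 rose by 1.61 ± 0.36. Gadd45g rose by 3.14 ± 0.83, or by 2.51 (adjusted p = 0.0415) without fasted 1 and 4.37 without ad libitum 2. Hsd11b1, which reactivates glucocorticoid inside cells, fell by 0.97 ± 0.18. Tat, an aminotransferase raised by glucocorticoid, was at 1283, 845 and 841 and 6275, 1364 and 1537. Fasted 1 was more than 4 times fasted 2, and Tat rose by 1.63 ± 0.46 (adjusted p = 0.0101), a call lost without fasted 1 (0.55, adjusted p = 0.371) or ad libitum 3 (1.52, adjusted p = 0.0542).

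Of 14 growth arrest genes 6 rose and 2 fell (median 0.54), with 3 higher without fasted 1 and 1 lower without fasted 1, fasted 3 or ad libitum 3 or with the length trend removed. Cdkn1a, the p21 inhibitor of cyclin-dependent kinases, was at 1.12, 1.8 and 2.29 in ad libitum and 55.6, 29.3 and 78.2 in fasted livers. It was low in each fed liver, and rose by 4.96 ± 1.01 (adjusted p = 0.000781). Gadd45b rose by 2.92 ± 0.75, while its relative Gadd45a fell by 2.07 ± 0.54. Of 16 proliferation genes 0 rose and 3 fell (median -0.45), or 1 without fasted 1 and 0 without ad libitum 3.

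Amino acid breakdown and urea cycle genes were split, with 11 of 39 higher and 3 lower (median 0.10). The higher count was 5 without fasted 1, 7 without ad libitum 1 and 6 without ad libitum 3, and 5 were lower from the 6 libraries alone. Asl of the urea cycle rose by 1.51 ± 0.40, while Otc of the same cycle fell by 0.73 ± 0.17. Gpt2, which makes pyruvate from alanine, rose by 1.46 ± 0.29, and Aass, which starts lysine breakdown, by 1.54 ± 0.31. Glud1, which frees ammonia from glutamate, fell by 0.91 ± 0.18.

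In the methionine and one-carbon list 4 of 21 rose and 2 fell (median 0.08), with 2 higher without ad libitum 1 and 1 lower without fasted 3 or ad libitum 3. Mat1a, which makes S-adenosylmethionine in hepatocytes, was at 3131, 3304 and 3510 in ad libitum and 12623, 9066 and 10324 in fasted livers. It was already abundant and about 3 times higher in fasted livers without overlap, and rose by 1.69 ± 0.32 (adjusted p = 0.000476). Pemt, which spends S-adenosylmethionine to make phosphatidylcholine, fell by 1.32 ± 0.17 (adjusted p = 8.98e-06).

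Drug metabolism genes fell in 9 of 43 cases and rose in 5 (median -0.17), or 32.6% called against 24.5% over all genes. The higher count was 2 without ad libitum 3 and 3 without fasted 1 or ad libitum 1, the lower count was 5 without fasted 3 and 4 without ad libitum 3, and with the length trend removed 8 were higher and 5 lower. Cyp26a1, which breaks down retinoic acid, was at 27.1, 20.8 and 15.6 in ad libitum and 1.87, 2.79 and 1.76 in fasted livers. Its fed values were about 10 times the fasted ones, and it fell by 3.30 ± 0.54 (adjusted p = 9.86e-05). Cyp1a2, which oxidises caffeine, fell by 1.54 ± 0.32, whereas Cyp2b10, a target of the receptor CAR, rose by 2.52 ± 0.65. NRF2 targets had 7 of 18 members lower and 1 higher (median -0.58), with a lower count of 3 without fasted 1 and 4 without fasted 2 or fasted 3. Gsta3, a glutathione transferase, was at 1579, 829 and 1980 and 397, 428 and 377 and fell by 1.87 ± 0.23 (adjusted p = 4.21e-06). Nfe2l2, which encodes NRF2, fell by 0.67 ± 0.20, a call lost without fasted 2 or 3 or ad libitum 1 (adjusted p = 0.0572, 0.0721 and 0.15), and Srxn1 was the member that rose, by 0.84 ± 0.24.

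Bile acid genes had 4 of 21 members higher and 3 lower (median 0.05), or 33.3% called against 24.5% over all genes. Cyp7a1, the rate-limiting enzyme of bile acid synthesis, was not called (0.17 ± 0.68, adjusted p = 0.885). Cyp39a1, which acts on a hydroxylated sterol, rose by 2.45 ± 0.67, and Cyp2c70, which makes muricholic acids in mice, fell by 2.09 ± 0.35. The transporters Abcb4, Abcc3 and Slco1a4 rose by 1.63 ± 0.34, 1.20 ± 0.25 and 1.50 ± 0.32.

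Plasma protein and mitochondrial respiration genes, whose transcripts are often short, were among the lists whose counts moved when the length trend was removed. In the acute phase and plasma protein list 9 of 38 fell and 1 rose (median -0.46), with 4 lower without fasted 3, 0 higher without fasted 1 or ad libitum 1, and 3 lower with the length trend removed. Ttr, the thyroid hormone carrier, was at 7279, 5198 and 7662 in ad libitum and 3345, 3373 and 3516 in fasted livers, without overlap, and fell by 0.98 ± 0.23 (adjusted p = 0.00262), a call lost with the length trend removed (-0.31, adjusted p = 0.313). Car3, an abundant carbonic anhydrase outside that list, was at 2817, 1225 and 2381 and 392, 218 and 255 and fell by 2.89 ± 0.46 (adjusted p = 7.82e-05). Apolipoprotein genes had 3 of 21 higher and 4 lower (median -0.32), or 2 lower and a median of 0.05 with the length trend removed. Those counts were 1 higher without fasted 1, fasted 3, ad libitum 1 or ad libitum 3, and 1 lower without fasted 3 or 2 without fasted 1, fasted 2, ad libitum 1 or ad libitum 3. Mttp, which loads triglyceride onto apolipoprotein B, rose by 1.29 ± 0.28. Of 46 respiration genes 12 fell and 4 rose (median -0.37), with 5 lower without fasted 3, 4 without ad libitum 3 and 3, with a median of 0.09, once the length trend was removed. Of its 4 higher members 3 were carriers of the inner membrane, with Slc25a25, Slc25a47 and Ucp2 higher by 1.74 ± 0.41, 1.69 ± 0.41 and 1.11 ± 0.29, and the other was Ndufs1, a subunit of complex I.

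In lists of protein synthesis, turnover and stress most counts moved with single libraries, and several moved with the length trend. The ribosome biogenesis list had 8 of 22 genes higher and 0 lower (median 0.47), with 3 higher without fasted 1, 5 without ad libitum 1 and 3 without ad libitum 3. It had 5 higher with the length trend removed, and 4 higher and 1 lower from the 6 libraries alone. Rrp12 of that list, which helps export ribosomal subunits, rose by 1.54 ± 0.38. The proteasome and ubiquitin list had 5 of 31 higher and 3 lower (median -0.02), with 2 or 3 higher without any 1 library and 0 lower without fasted 3 or ad libitum 3. With the length trend removed that list had 8 higher and 1 lower (median 0.21), and from the 6 libraries alone 3 higher and 2 lower. The ATF4 and unfolded protein list had 2 of 28 higher and 1 lower (median -0.06), with 0 higher without fasted 2, fasted 3, ad libitum 1 or ad libitum 3, and 0 lower without any library other than fasted 2. It had 1 in each direction with the length trend removed, and 1 higher and 2 lower from the 6 libraries alone. Autophagy had 2 of 29 higher and 1 lower (median -0.04), with 0 higher without ad libitum 1, 1 without fasted 1 or fasted 3, and 2 lower without ad libitum 2. With the length trend removed 1 was higher and 3 lower, and from the 6 libraries alone 1 was higher. Heat shock had 1 of 14 higher and 0 lower (median 0.34), with 0 higher without fasted 1. Nutrient sensing by mTOR and AMPK had 4 of 22 higher and 3 lower (median 0.22), with 1 higher without ad libitum 3, 2 higher and 4 lower (median -0.05) with the length trend removed and 2 in each direction from the 6 libraries alone. Lamtor1, a lysosomal anchor of mTORC1, fell by 0.91 ± 0.18. Metal handling had 1 of 18 higher and 2 lower (median -0.11), with 0 lower without fasted 2, fasted 3, ad libitum 1 or ad libitum 3 and 1 without fasted 1, and 0 higher without any library other than ad libitum 2, which gave 2. It had 1 lower with the length trend removed, and 0 higher and 3 lower from the 6 libraries alone. Interferon response had 2 of 20 in each direction (median -0.49), with 0 lower without fasted 3 or ad libitum 1, 1 lower without fasted 1, fasted 2 or ad libitum 3, and 1 higher without fasted 3 or ad libitum 1. In that list 1 was lower with the length trend removed and 4 from the 6 libraries alone. Among 19 nuclear receptors 3 rose and 2 fell (median 0.08), or 1 fell from the 6 libraries alone. Nr4a1, an early response factor, rose by 3.24 ± 0.80, and Nr1h3, which encodes the sterol receptor LXR alpha, fell by 0.63 ± 0.16.

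The clock list had 1 of 20 members higher and 2 lower (median -0.05) when fasted and fed livers of the same hour were compared, with 0 lower without fasted 2, fasted 3 or ad libitum 1 and 1 lower without fasted 1 or ad libitum 3. With the length trend removed 0 were higher and 1 lower (median -0.28), and from the 6 libraries alone 5 were lower. Clock, a driver of the circadian loop, was at 26.1, 22 and 18.6 in ad libitum and 51, 46.1 and 51.3 in fasted livers. The groups did not overlap, and Clock rose by 1.15 ± 0.33 (adjusted p = 0.0116), a call lost without ad libitum 3 (1.04, adjusted p = 0.0656). Dbp, a clock output factor, and Nr1d1, the repressor REV-ERB alpha, did not pass (-1.96 ± 0.88 and -0.62 ± 0.74, adjusted p = 0.102 and 0.582). Dbp did pass from the 6 libraries alone (-1.97, adjusted p = 0.00281). It also passed without the 2 ad libitum libraries of other hours whose clock genes stood against their hour (-1.95, adjusted p = 0.00813). Those 2 were picked by their clock genes after the data were seen, so that fit is not independent support for Dbp. The hours of the labels were not tied to lights on in the sources used here.

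Outside the lists, the first 6 genes here were named for the size of their fold change and Col4a2 for its small p. Npnt, an extracellular matrix ligand, rose by 5.26 ± 0.79 (adjusted p = 4.18e-05) and Cgref1 by 5.30 ± 0.99 (adjusted p = 0.000351). Ntrk2, a neurotrophin receptor, fell by 4.46 ± 0.87 (adjusted p = 0.00054). Fam19a2 fell by 3.91 ± 0.52 and Grid1 fell by 3.88 ± 0.60, and Chrna4, a nicotinic receptor subunit, had 314 counts in the ad libitum libraries and 3 in the fasted ones, a ratio of 100 with a 95% counting interval of 34 to 489. Col4a2, a basement membrane collagen, rose by 2.00 ± 0.27.

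**Figure D3:**
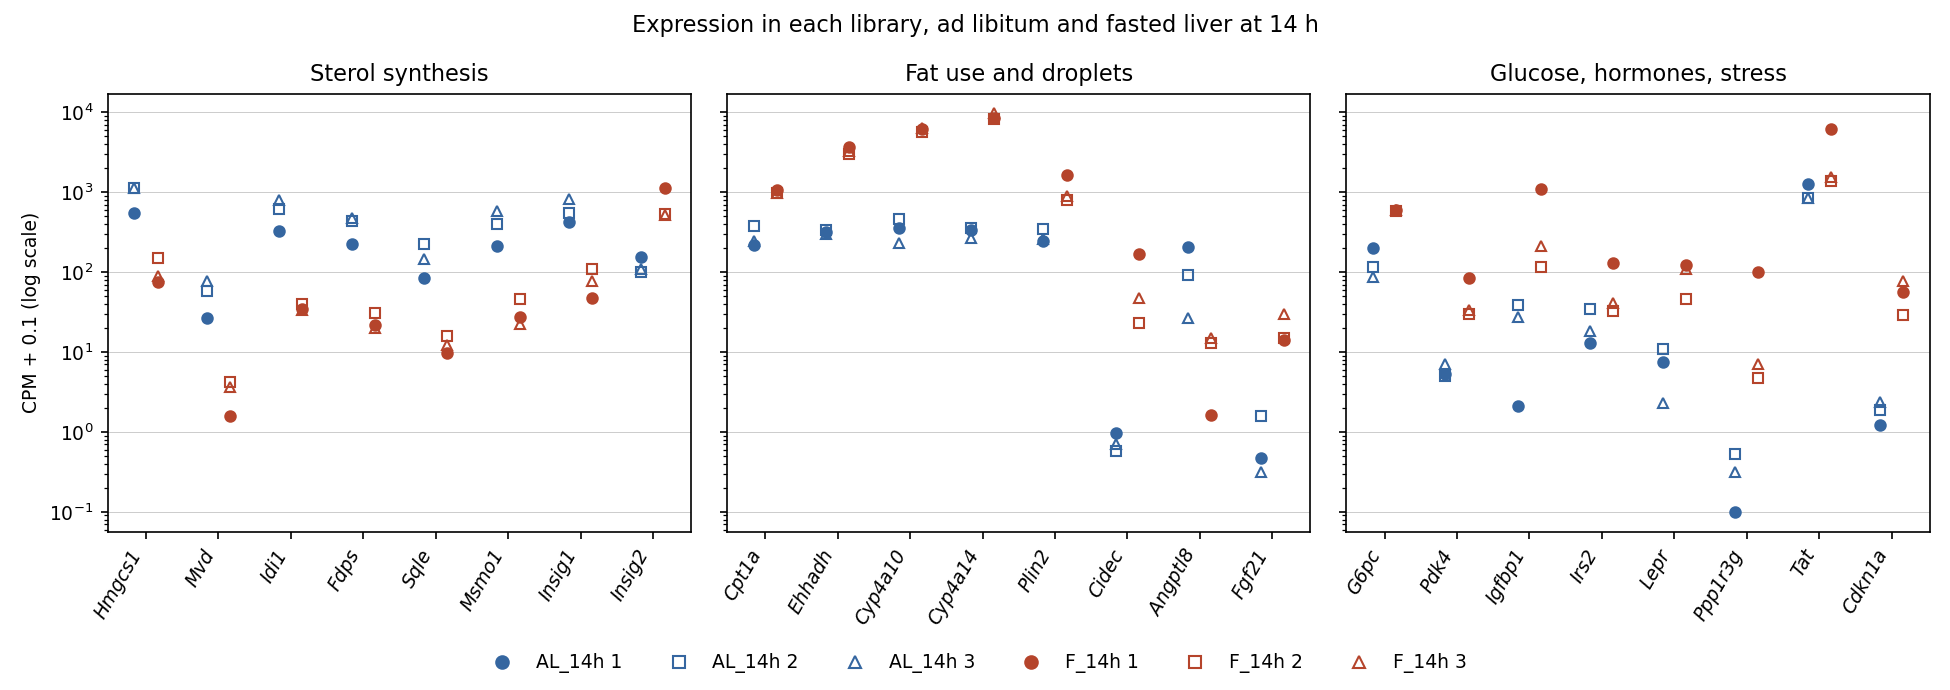
Level of selected genes in each library at 14 h, in CPM plus 0.1 on a log axis, with blue for ad libitum, red for fasted and 1 symbol per replicate number. The groups are apart for each gene drawn except Irs2, and fasted 1 (filled red circle) lies well above the other fasted libraries for Igfbp1, Ppp1r3g and Tat.

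Markers of other cell types were counted beside these results. Endothelial markers of the liver sinusoids stood out, with 11 of 14 higher and 0 lower (median 0.93), and a summed level of 428.9 to 556.3 CPM in fasted and 151.6 to 306.6 in ad libitum livers. The count was 5 without ad libitum 1, which was the lowest library for each of the 14, 7 with the length trend removed and 6 from the 6 libraries alone. Lyve1, a hyaluronan receptor of these cells, was at 0.321, 2.13 and 1.31 in ad libitum and 33.1, 13.2 and 17.7 in fasted livers. No fed value came near the fasted ones, and Lyve1 rose by 4.07 ± 0.68 (adjusted p = 0.000114), or by 4.70 without ad libitum 2. Pecam1 and Flt4 rose by 1.57 ± 0.24 and 1.61 ± 0.29, while Clec4g, Fcgr2b and Gpr182 were not called. Whether more endothelial cells plays a part in any other change was not tested. Hepatocyte markers had 3 of 28 higher and 5 lower, or 28.6% called against 24.5% over all genes. The higher count was 0 without ad libitum 3, 1 without fasted 1, fasted 3 or ad libitum 1, and 5 without ad libitum 2. Of these markers 2 were lower with the length trend removed, and 5 were higher from the 6 libraries alone. Their summed level was 135145 to 151498 CPM in fasted and 183204 to 187993 in ad libitum livers. Kupffer cell markers had 1 of 12 higher and stellate cell markers 2 of 14, with 0 lower in each, and without ad libitum 1 or 3 these were 0 and 1. The Kupffer call was also lost without fasted 2 or 3, and 1 stellate call without fasted 1. With the length trend removed 2 Kupffer markers were higher, as from the 6 libraries alone, and 1 stellate marker was higher and 1 lower. The summed Kupffer level was 363.2 to 544.7 in fasted and 289 to 462.9 in ad libitum livers, and the summed stellate level 299.4 to 427.1 and 242 to 326.5. T and NK cell markers had 0 of 10 higher and 1 lower, and 0 lower without fasted 1, fasted 3 or ad libitum 1, with the length trend removed or from the 6 libraries alone. No gene was called in the model of all 38 libraries among 7 cholangiocyte, 6 B cell, 7 neutrophil, 7 erythroid, 3 adipocyte, 6 muscle and 2 kidney or gut markers, and the adipocyte genes Adipoq and Lep had at most 6 counts in a library.

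The pancreatic enzyme genes Amy2a5, Pnlip and Cpa1 were found mostly in 1 fasted library. Amy2a5, a pancreatic amylase, was at 0.107, 0 and 0 in ad libitum and 28.8, 0 and 1.28 in fasted livers, so that fasted 1 held nearly all of it. Pnlip and Cpa1 were at 4.16 and 2.4 CPM in fasted 1 and at 0 in the ad libitum libraries. These 3 of 6 pancreas markers were called higher, and none of the list was called without fasted 1 or without any of the 3 ad libitum libraries. From the 6 libraries alone 0 of the list were called higher and 1 lower, while Prss1, Ins2 and Gcg had 0 counts. The part of pancreas RNA in other values of fasted 1 was not tested.

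**Figure D4:**
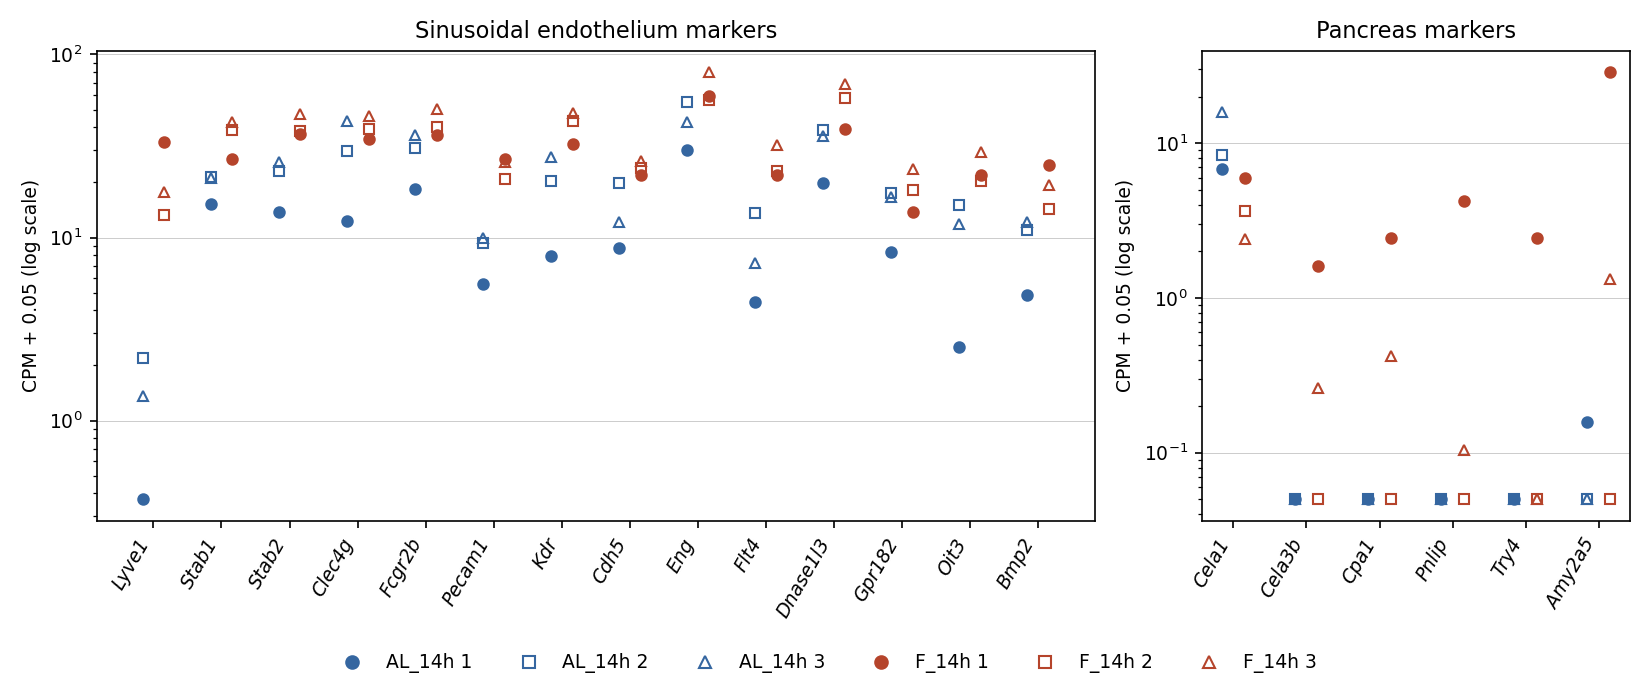
Level of sinusoidal endothelium markers and pancreas markers in each library at 14 h, in CPM plus 0.05 on a log axis, with blue for ad libitum, red for fasted and 1 symbol per replicate number. Ad libitum 1 (filled blue circle) is the lowest library for each endothelial marker drawn, and fasted 1 (filled red circle) holds most of the pancreatic signal other than Cela1.

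The same contrast at 6 h and 22 h was set beside the 14 h values, using other libraries of both diets. At 6 h 322 genes were called (2.34%), from 3 fasted and 2 ad libitum libraries, and at 22 h 1581 (11.5%). Mvd differed between fasted and fed livers by -5.02 at 6 h, -4.14 at 14 h and -3.24 at 22 h. The fold changes of Ehhadh at these hours were 2.16, 3.37 and 2.63, and those of Cidec 4.87, 6.94 and 6.36. Mvd, Ehhadh and Cidec had the same sign at the 3 hours. For Cdkn1a the values were 1.63, 4.96 and 2.88, and for Car3 -0.38, -2.89 and -3.07. Cdkn1a and Car3 did not pass the edgeR test at 6 h (adjusted p = 0.475 and 0.788) and passed it at 22 h (adjusted p = 0.0333 and 0.000138). Tests of the difference between hours called 1 gene for 14 h against 22 h (0.00725%) and 6 genes for 14 h against 6 h (0.0435%), 2 higher at 14 h (0.0145%) and 4 lower (0.029%), while 811 and 1385 genes had an unadjusted p under 0.05 (873 and 1461 with DESeq2). None of Mvd, Ehhadh, Cidec, Cdkn1a and Car3 was among those called, and that does not show that their effects were equal. The genes called were Dmrta1 for 22 h and Celf2, Dsg1c, Eva1a, Mettl7a1, Myo5b and Ugp2 for 6 h. The fold change of Celf2, a splicing regulator, was -0.21 at 6 h, where it was not called (adjusted p = 0.739, edgeR), and 1.52 at 14 h. That of Ugp2, which makes UDP-glucose, was 0.42 and -0.96.

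**Figure D5:**
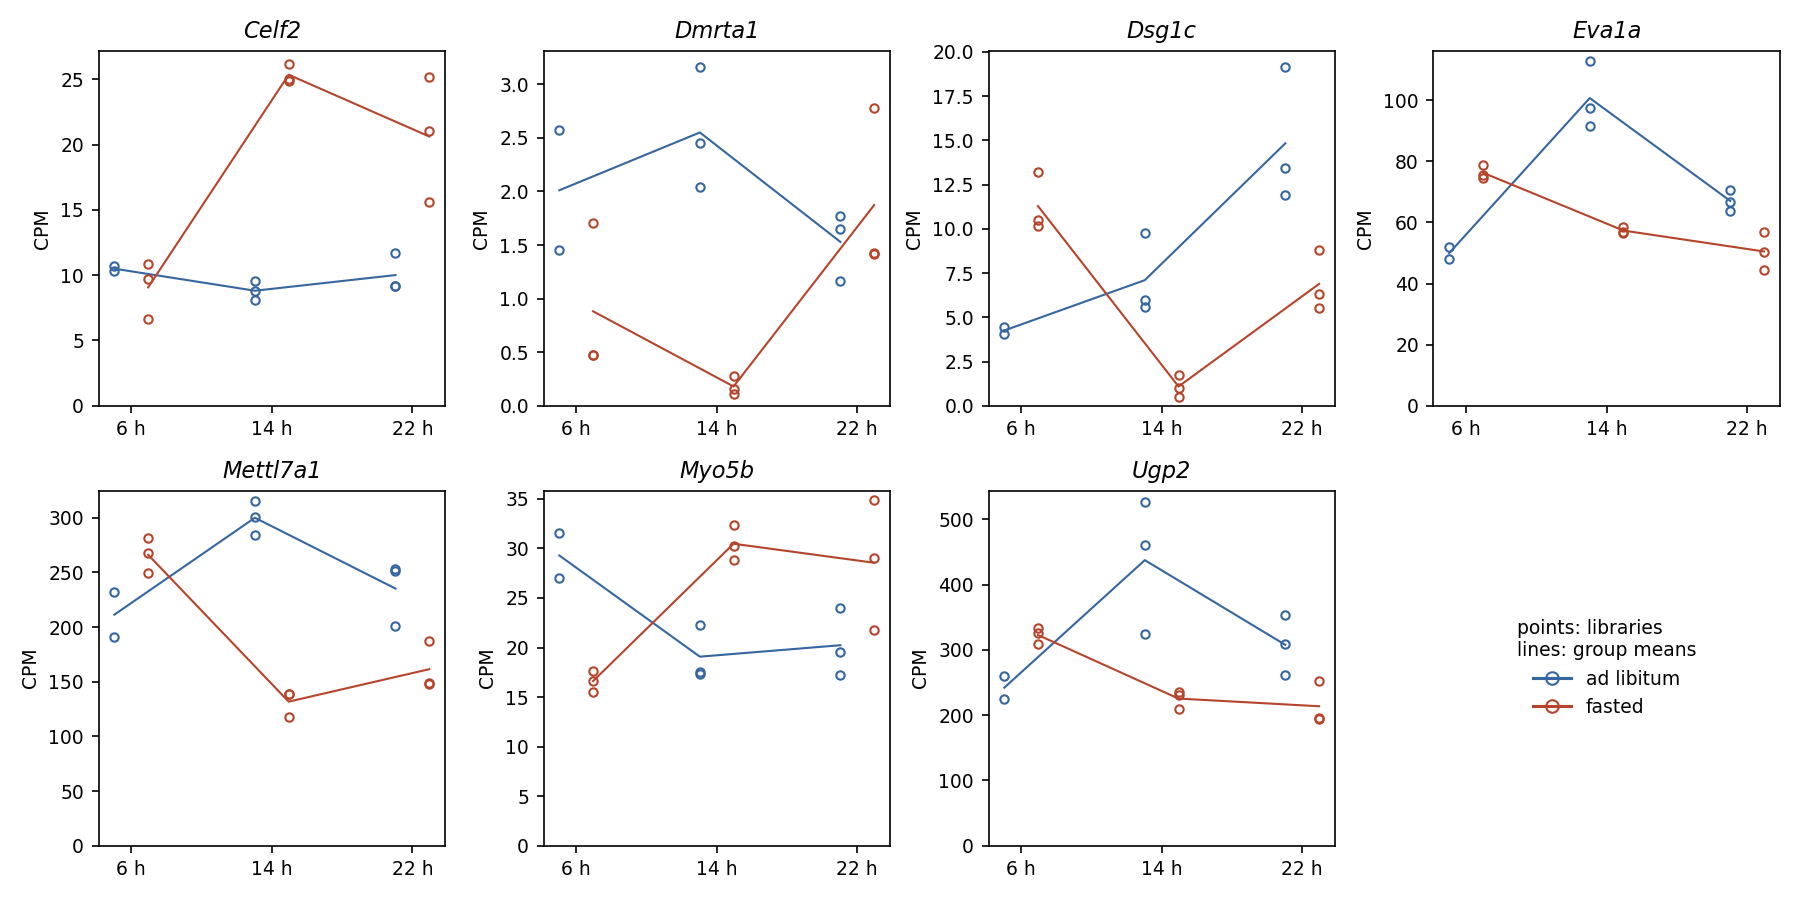
Level in CPM of the genes whose fasting effect at 14 h differed from that at 6 h or 22 h, with 1 point per library, lines through group means, blue for ad libitum and red for fasted. Celf2 is at about the same level in both diets at 6 h and higher in fasted livers at 14 h, and Dmrta1 is lowest in the fasted livers of 14 h.

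Calorie-restricted livers of 14 h were compared with the same ad libitum libraries, so these values share their controls with the fasting ones. The fold change of Mvd over ad libitum livers was 0.04 in calorie-restricted and -4.14 in fasted livers. For Ehhadh the values were 0.65 and 3.37, and for Cidec -1.32 and 6.94. In calorie-restricted livers Mvd, Ehhadh and Cidec did not pass the edgeR test (adjusted p = 0.989, 0.518 and 0.782). Cidec had means of only 0.255 CPM in calorie-restricted and 0.644 CPM in ad libitum livers. The difference between these diets was not tested here.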

How the data were processed

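Per the labels' protocols, polyadenylated RNA from about 30 mg of liver was made into non-directional libraries and sequenced as 150-base read pairs. Per the labels, the authors mapped them to GRCm38 protein-coding genes using Bowtie with up to 2 mismatches, and RSEM 1.2.3 gave the expected counts of the first deposited table. The other deposited table holds a signal, TPM rescaled by the authors with EBSeq per the labels. No batch was named.

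Expected counts of 21954 genes were rounded. All 38 libraries entered 1 model with a term per group (13 groups, 25 residual degrees of freedom) in edgeR 4.0.16 under R 4.3.3, with filterByExpr, TMM scaling and the quasi-likelihood F test, adjusted by Benjamini-Hochberg. Standard errors follow from each fold change and its F statistic, and intervals and floors cover counting error only. GENCODE vM21 identifiers gave positions, and RefSeq promoters came from GRCm38.p6. DESeq2 1.42.0 and limma 3.58.1 gave alternatives, as did leaving out each library, the replicate number as a block and removal of the trend with exon length. Scripts were tested on simulated data.

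Genes outside the lists were named for the largest fold changes (no overlap between groups, mean of at least 5 CPM), the smallest p or the largest difference in mean CPM. List members were named by size of change, or by role after their values were seen. Members and lists were chosen with earlier results of these data known. The labels did not say that replicate numbers pair the samples, and the main model did not pair them. Reads of close paralogs and of overlapping genes could not be told apart. Other groups were not analysed here beyond the values given. A few tested genes, counted within their lists, are not reported individually.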

Additional observations from a re-analysis of the deposited data

Results flagged for a closer look

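The fasting effect at 14 h differed from that at 22 h for Dmrta1, a transcription factor gene at low level that was chosen after its values were seen. Dmrta1 was at 3.16, 2.04 and 2.45 CPM in ad libitum and at 0.16, 0.274 and 0.107 CPM in fasted livers of 14 h. At 22 h the ad libitum livers held 1.65, 1.77 and 1.16 CPM and the fasted ones 1.42, 1.42 and 2.78. The log2 effects were -3.78 and 0.30, and their difference was -4.08 ± 0.62 (adjusted p = 0.00319, edgeR). It was called in 13 of 16 other settings.

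The effect at 14 h differed from that at 6 h for 6 genes in the same model. All had fold changes of opposite sign at the 2 hours, though that of Celf2 at 6 h was not called (adjusted p = 0.739). Eva1a, linked to autophagy, was at 51.9 and 48.1 CPM in ad libitum and at 74.5, 75.6 and 78.9 CPM in fasted livers of 6 h. At 14 h it was at 97.6, 91.8 and 112.8 CPM in ad libitum and at 56.7, 58.5 and 56.8 CPM in fasted livers. The groups did not overlap at either hour and stood in opposite order. The difference for Eva1a was -1.42 ± 0.22 (adjusted p = 0.00428), called in 17 of 17 other settings.

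Celf2 had a difference of 1.74 ± 0.30 (adjusted p = 0.0162), called in 14 of 17 settings. For Dsg1c, a desmosome cadherin, it was -4.10 ± 0.77 (adjusted p = 0.0288; 11 of 17). Mettl7a1 had -1.52 ± 0.28 (adjusted p = 0.022; 10 of 17). For Myo5b, a motor of vesicle traffic, the difference of 1.49 ± 0.29 (adjusted p = 0.0357) was called in 6 of 17. Ugp2, with -1.37 ± 0.27 (adjusted p = 0.0357), was called in 8 of 17. The ad libitum livers of 6 h numbered 2.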

How the results depend on the processing

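No called gene among the 214 considered for naming changed sign at 14 h under another setting. Over the settings, 3431 values of genes considered for naming kept their side of the threshold, 319 lost it and 19 passed it newly. Sign changes among the other called genes were not counted. Of the uncalled genes, Hsd17b7 (0.10) and Cyp7a1 (0.17) turned to -0.17 and -0.01 without fasted 1, and Hsd17b7 was also below 0 without ad libitum 1. Pck1, Srebf2, Scd1, Igf1, Dbp and Alb passed under at least 1 other setting, while Acacb, Adra1a, Clock, Irs2 and Ttr lost their calls with the length trend removed. Of 214 called genes considered for naming, 142 kept the call without each of the 6 libraries in turn. Depth limits genes under a few CPM most, and 3 libraries a group limit all.

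Leaving out 1 library at a time gave 1883 to 3724 calls at 14 h (893 to 1783 higher, 990 to 1941 lower). The other settings gave 2520 with the length trend removed to 3811 with the replicate block. The labels do not say that replicate numbers pair the samples. Correlations between same-numbered libraries were 0.0342, 0.0426 and -0.0347, which cannot settle pairing from so few libraries. The block changed the calls for 14 h against 6 h from 6 to 9 (4 higher).

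The difference between 14 h and 22 h, 1 gene, became 5 with DESeq2 (1 higher, 4 lower), 0 with the compared libraries, with fasted and ad libitum libraries or with limma on rescaled TPM, and 4 without the 2 libraries whose clock genes stood against their hour (2 higher, 2 lower), an alternative chosen after seeing the data. Leaving out single libraries gave 1 to 4 (0 to 2 higher, 1 to 2 lower).

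The difference between 14 h and 6 h, 6 genes, became 91 with DESeq2 (33 higher, 58 lower), 1 with the length trend removed (0 higher, 1 lower), 23 with the compared libraries (9 higher, 14 lower), 12 with limma at a pseudocount of 0.1 (4 higher, 8 lower), 13 without a minimum (5 higher, 8 lower) and 15 without those 2 clock libraries (6 higher, 9 lower). Of higher genes, 1 was left without a filter and 0 with fasted and ad libitum libraries alone. Leaving out single libraries gave 1 to 32 (0 to 17 higher, 1 to 15 lower), the most without ad libitum 2. The cause was not tested.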
